A study of Mus musculus with 8 samples.

Results

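Colony cells were compared with macrophages stimulated with lipopolysaccharide (LPS), the bacterial cell wall component used to induce classical, pro-inflammatory activation. The colony cells were bone marrow cells plated on an endothelial monolayer and kept for 7 days in a medium for haematopoietic stem cells. The macrophages were bone marrow cells grown for 7 days on culture dishes with M-CSF (macrophage colony-stimulating factor) and then given LPS for 24 hours. Each group had 2 samples, so the comparison used 4 of the 8 arrays of the series. The other arrays were macrophages of the same M-CSF culture in control medium or given interleukin-4 (IL-4), with 2 samples each, and the controls appear here as a point of reference. All bone marrow came from mice with the transgene Tg(CAG-DsRed*MST)1Nagy, a DsRed fluorescent protein under the ubiquitous CAG promoter, on the B6.Cg background. RNA was measured on 1-colour expression arrays, on which labelled RNA binds to spotted probes and the spots are scanned for brightness. Members of the comparison were all genes with a probe well above background on both arrays of the LPS or the colony group, which gave 26015 of the 26504 genes tested in the whole series. Levels are log2 signals minus the 75th percentile of the same array, so a level of 0 is the 75th percentile and 1 unit is a 2-fold step.

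The groups differed in substrate, medium and growth factor together, and in LPS, so these differences cannot be told apart. The labels do not say whether endothelial cells were removed before RNA was taken, where they came from, or whether replicates were separate animals or cultures. The p-values therefore measure only the spread between these samples. An exact permutation test of 2 samples against 2 cannot go below 0.333, so the tests reported are from limma's moderated fit over all genes. In bulk RNA, fewer cells of a type and less RNA per cell cannot be told apart.

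LPS is sensed by the Toll-like receptor TLR4 with CD14 and MD-2 (Ly96). One arm, through MyD88, activates NF-kB, which drives transcription of cytokines such as IL-1 and TNF and of its own inhibitors. Another arm, through TRIF, induces interferon-beta, which acts back on the cell to switch on antiviral genes. Alternatively activated macrophages, by contrast, are known for arginase 1, the mannose receptor, tissue repair and matrix remodelling.

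The promoter elements of these pathways can be read in several of the genes that differed between the groups. The stretches printed here are from RefSeq (GRCm38.p6), run 5′ to 3′ on the strand of the gene, and carry the motif letters in capitals. They are from the interferon and NF-kB lists and, for Cxcl10, from the classical activation list, and were shown because they hold a match; each gene was lower in colony cells than after LPS. The searched letters of the interferon-stimulated response element (ISRE) were GAAA, any 2 bases and again GAAA, and the NF-kB motif is given by its name, both on either strand. Cxcl10, at chr5:92348971-92349114 on the minus strand, holds 1 ISRE and 2 NF-kB matches. Ifit1 (chr19:34640773-34640825, plus strand) and Ifit3 (chr19:34583361-34583428, plus strand) hold 2 ISRE matches each. Rsad2 (chr12:26456551-26456584, minus strand) holds 1, Isg15 (chr4:156200863-156200908, minus strand) holds 3 that overlap, and Nfkbia (chr12:55492655-55492688, minus strand) holds 1 NF-kB match.
Cxcl10: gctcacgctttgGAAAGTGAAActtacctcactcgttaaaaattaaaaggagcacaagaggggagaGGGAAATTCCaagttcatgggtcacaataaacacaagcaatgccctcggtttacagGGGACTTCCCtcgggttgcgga
Ifit1: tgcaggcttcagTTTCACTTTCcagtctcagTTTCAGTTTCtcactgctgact
Ifit3: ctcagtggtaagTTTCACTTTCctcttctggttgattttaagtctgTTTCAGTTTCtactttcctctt
Rsad2: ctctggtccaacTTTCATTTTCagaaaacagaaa
Isg15: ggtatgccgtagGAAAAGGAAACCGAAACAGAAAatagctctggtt
Nfkbia: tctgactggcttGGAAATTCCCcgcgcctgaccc
Over windows from 250 bases before to 50 bases after the start, 3.44% of all 32851 promoters in the table held an ISRE match and 4.51% an NF-kB match. Of the 32 promoters found for the interferon list, 16 (50%) held an ISRE, and of the 18 promoters of the NF-kB list, 10 (55.6%) held an NF-kB match. Among genes measured in both groups and at least 32-fold lower in colony cells, 24 of 176 promoters (13.6%) held an ISRE and 21 (11.9%) an NF-kB match. Among those at least 32-fold higher, 4 of 290 promoters (1.38%) held an ISRE and 18 (6.21%) an NF-kB match. The AP-1 letters TGANTCA were in 28 promoters (15.9%) of the lower group and 24 (8.28%) of the higher group, against 7.81% of all promoters, and the GAS letters TTCNNNGAA in 10.2% and 5.86%, against 8.30%. Both groups were drawn from the genes tested. Of the 17041 promoters of those genes, 3.27% held an ISRE, 5.12% an NF-kB, 6.06% an AP-1 and 7.31% a GAS match. The CArG motif, also given by its name, was searched as well. It was in 2 promoters (1.14%) of the lower group and 9 (3.10%) of the higher group, against 1.43% for the genes tested. Of the 7 promoters found for the smooth muscle marker list, 0 held it. These shares describe letters in a window, and a match is not a measured binding site.

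All 8 arrays lay on 1 slide. The share of spots well above background ran from 62.4% to 72.2%, and the highest was that of LPS replicate 2, where 105 spots were marked uneven against 0 to 5 on the other arrays. The 75th percentile signal, which is subtracted, was 799 on LPS replicate 1 and 624 on LPS replicate 2, so an equal signal near background gives a higher level on replicate 2. Some genes, such as Cxcl12, Msln, Krt7 and Cdh1, were well above background on the second LPS array and not on the first, and their values are given once. Some other results that rest on the second LPS array are given with and without it. Without it, 19298 genes were called instead of 20283, of which 7109 were higher and 12189 lower in colony cells.

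Most genes tested differed between the groups. Of 26504 genes, 20283 (76.5%) differed at an adjusted p under 0.05 (limma, Benjamini-Hochberg), with 7099 (26.8%) higher and 13184 (49.7%) lower in colony cells than in LPS macrophages. At an unadjusted p under 0.05 the count was 20757. The colony and LPS arrays did not overlap for 88.9% of genes with a value on every array, so separated groups were common. The median change over all genes was -0.42 on the log2 scale, and it depended on the processing: it was -0.19 after quantile normalization and -0.49 with no filter on dim probes. Measured from that median, 5856 of the called genes were at least 2-fold higher and 4682 at least 2-fold lower. Of the 26504 genes tested, 9032 carried only the file's name. For 22251 genes the signal was well above background on all 4 arrays, and of these 17240 (77.5%) were called, 5506 (24.7%) higher and 11734 (52.7%) lower. The 22251 include 3332 long intergenic RNA entries, of which 409 were called higher and 2021 lower. The counts and medians of gene lists that follow are over genes measured in this way, and are to be read against these shares and against the median over all genes. A difference of at least 10-fold was reached by 767 of them in the higher and 818 in the lower direction, or by 806 and 810 without LPS replicate 2. A further 1239 genes were well above background on both colony arrays and not on the LPS arrays, and 1004 genes the reverse. For those genes only a lower bound of the fold is given, as the mean of the bright group over the higher of the array's lowest signal well above background and the dim probe's own signal. Every gene given by such a bound passed the test, with an adjusted p of at most 0.042 (Robo4). These genes were picked for being well above background in the bright group and not in the dim group, which is the comparison tested. The fit also used their readings below background. Passing the test is therefore not separate evidence of a difference for them, here or where their p-values are printed below.

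**Figure D1:**
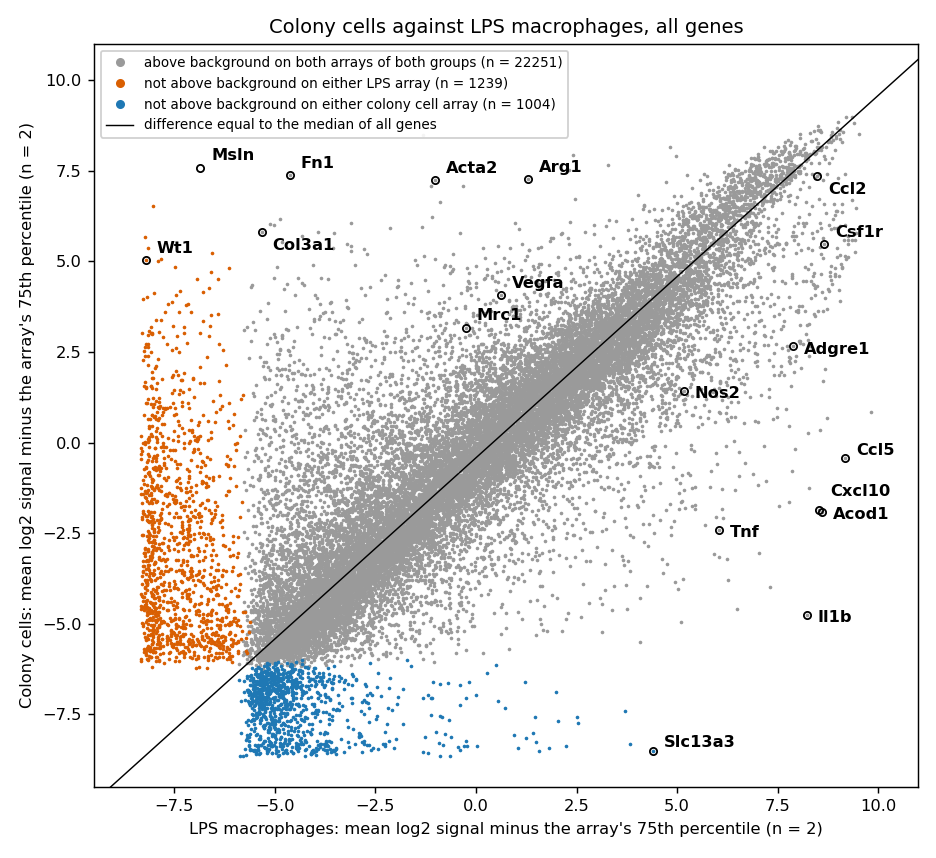
Mean level of each gene in LPS macrophages (x axis) and colony cells (y axis), as log2 signal minus the 75th percentile of the array, for genes measured on both arrays of both groups and for genes not well above background on both arrays of 1 group. Genes measured on 1 array of a group are not drawn, apart from Msln. Il1b, Cxcl10 and Ccl5 lie far to the lower right, and Fn1, Col3a1 and Arg1 lie above the line, which marks a difference equal to the median of all genes.

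Several of the largest reductions were in genes of inflammatory macrophages. Il1b, which encodes the inflammatory cytokine interleukin-1 beta, read 8.11 and 8.33 on the LPS arrays and -4.99 and -4.53 on the colony arrays. The LPS arrays lay far above both colony arrays, and the fitted change of -12.98 (SE 0.18, adjusted p = 2.9e-07) was an 8068-fold lower level. Acod1, which makes the antimicrobial metabolite itaconate, read 8.50 and 8.71 after LPS and -2.01 and -1.81 in colony cells (-10.52, SE 0.11, adjusted p = 2.6e-07). Cxcl10, which attracts activated T cells and carries the ISRE and NF-kB letters shown above, read 8.43 and 8.64 against -2.01 and -1.73, a 1360-fold difference. The chemokine Ccl5 read 9.01 and 9.35 against -0.60 and -0.26, a 781-fold difference. The formyl peptide receptors Fpr1 (-11.29) and Fpr2 (-10.06), which guide phagocytes to bacterial peptides, were also among the 10 largest reductions. The rest of those 10 were Ms4a4a (-11.06), Clec4a1 (-10.10), Ms4a4b (-10.05) and the transcript U90926 (-9.60). The Ms4a genes form a family of close relatives, so a probe for 1 of them may bind another. Among genes measured only after LPS, the largest bounds were for the transporter Slc13a3 (at least 1686-fold lower), Ms4a6b (at least 1137-fold) and Spic, a transcription factor of iron-recycling macrophages (at least 1046-fold). They were followed by Calhm6, Gpr18, Ifi213, Cxcl9 and Shisa3, with bounds from 282-fold to 468-fold.

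Several of the largest increases were in genes of extracellular matrix and structural proteins. Fn1, which encodes the adhesive matrix glycoprotein fibronectin, read -4.81 and -4.47 after LPS and 7.36 and 7.39 in colony cells. Both colony arrays were far above both LPS arrays, with a change of 12.01 (SE 0.18, adjusted p = 3.4e-07), or 4127-fold. Relative to the same control macrophages, Fn1 was at -1.83 after LPS and at 10.18 in colony cells. Col3a1, a fibrillar collagen chain, read -5.56 and -5.10 after LPS and 5.82 on both colony arrays (11.15, SE 0.27, adjusted p = 1.0e-06). Sparc, a collagen-binding matrix protein, read -1.40 and -1.27 against 8.53 and 8.46, a 907-fold difference. Timp3, an inhibitor of metalloproteinases (11.17), the keratin Krt19 (11.04), the fibulin Fbln2 (11.04), Fstl1 (10.34), Col1a1 (10.04), the ubiquitin ligase Nedd4 (9.92) and the caveolar protein Cavin3 (9.89) made up the rest of the 10 largest increases. Of genes measured only in colony cells, Vat1l had the largest bound (at least 5908-fold higher), followed by the matrix protein Efemp1 (at least 3249-fold), Prss23 (at least 2618-fold) and Ccdc80 (at least 2413-fold). Upk1b, the transcription factor Wt1, Perp and the cadherin Fat1 followed with bounds from 1820-fold to 2152-fold.

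Markers of leukocytes and macrophages differed as well, and these values stand beside every immune result that follows. All 23 pan-leukocyte genes were lower in colony cells (22 lower and 1 not called without LPS replicate 2, with normexp, with median centring or in the deposited table), with a median of -3.59, among them Ptprc, which encodes CD45 (4.96 and 4.99 after LPS, 0.60 and 0.50 in colony cells). Rac2 (-5.65), Hcls1 (-5.63), the signalling adaptor Lcp2 (-4.61) and the macrophage transcription factor Spi1 (-4.26) were lower too. Their summed linear level, in multiples of the array's 75th percentile, was 2029 and 2255 on the LPS arrays and 215 and 219 on the colony arrays. Of 15 macrophage markers 14 were lower and 1 was not called, with a median of -3.17 and summed levels of 2121 and 2419 against 198 and 202. Adgre1, which encodes F4/80, read 7.78 and 8.00 after LPS and 2.64 and 2.67 in colony cells, a 37.8-fold difference (-5.24, SE 0.09, adjusted p = 4.5e-07). Csf1r, the receptor for M-CSF, read 8.52 and 8.78 against 5.48 on both colony arrays, a 9.0-fold difference. The calcium-binding protein Aif1 differed most (-9.29), while the integrin Itgam, which encodes CD11b, read 4.71 and 4.75 against 4.85 and 4.93 and was not called (0.16, SE 0.08, adjusted p = 0.12), although it was after quantile normalization (0.85) and, with the sign turned, as the mean of all its probes (-1.54). No macrophage or pan-leukocyte marker was at background in colony cells. How much of each immune difference follows these markers was not tested.

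The classical activation list held 25 genes measured in both groups, and all 25 were lower in colony cells, with a median of -4.53, or -4.11 relative to the median of all genes. Without LPS replicate 2, 24 were lower and 1 was not called, and after quantile normalization 24 were lower and 1, Cxcl11, was higher (0.40 against -0.32). Tnf, which encodes tumour necrosis factor, read 6.11 and 5.95 after LPS and -2.35 and -2.46 in colony cells. The groups did not overlap, as for 88.9% of all genes, and the change was -8.44 (SE 0.09, adjusted p = 2.6e-07), or 348-fold. Colony cells also read below the control macrophages for Tnf, whose levels were 1.26 and 1.17. Il6, a cytokine of the acute phase, read 4.29 and 4.34 against -2.35 and -2.14 and was not well above background in controls, so colony cells stood between controls and LPS macrophages (-6.55, SE 0.22, adjusted p = 3.2e-06).

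Nos2, the inducible nitric oxide synthase, showed a smaller gap: 5.10 and 5.24 after LPS, and 1.43 on both colony arrays, a 13.3-fold lower level (-3.74, SE 0.10, adjusted p = 1.6e-06). Its control levels were 0.24 and 0.04, so colony cells were 1.29 above controls and LPS macrophages 5.03 above the same controls. Il12b, the shared subunit of interleukins 12 and 23, was not well above background in colony cells and was at least 131-fold lower. Il10, a cytokine that restrains inflammation, was likewise not well above background there, and at least 94.3-fold lower. Saa3, an acute phase protein, reached 9.59 and 10.04 after LPS and 0.70 and 0.96 in colony cells (-8.98). Over the 21 list members also measured in control macrophages, the median relative to control was 5.17 after LPS and -1.09 in colony cells, and both use the same control arrays. Over all 25, with those at background in controls such as Il6 and Il1a included, these medians were 5.51 and 0.10.

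**Figure D2:**
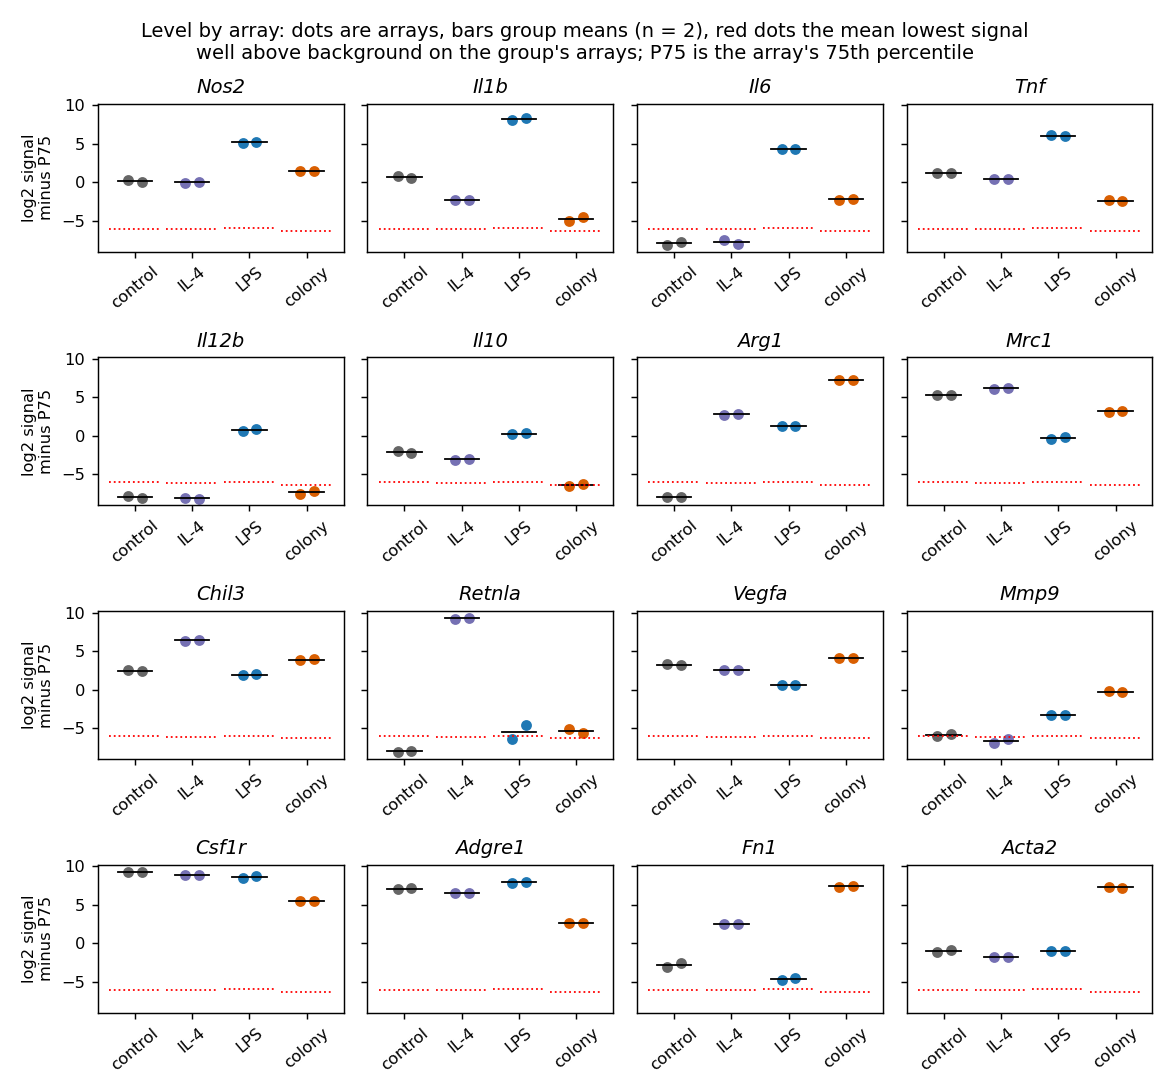
Level of 16 genes on each array (log2 signal minus the 75th percentile of the array) in control, IL-4, LPS and colony samples, with 2 points a group, and red dots for the mean lowest signal well above background. Il1b, Il6 and Tnf are high after LPS and low in colony cells, while Arg1, Fn1 and Acta2 are highest in colony cells.

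The interferon response list showed the same direction throughout: all 34 genes measured in both groups were lower in colony cells, with a median of -4.58. Mx1, an antiviral GTPase, read 6.28 and 6.21 after LPS and -3.32 and -3.12 in colony cells (-9.47, SE 0.14, adjusted p = 3.4e-07). Rsad2, which encodes viperin, read 6.98 and 7.07 against -1.21 and -1.12, a 292-fold difference. Both genes separated the groups by several units, with replicates close together. Cmpk2 (-7.97), Ifit3b (-7.40) and Irf7, a regulator of interferon genes (-7.25), followed. Ifit3b and Ifit3 (-4.88) are near-identical copies, and their signals may be shared. Of the genes whose promoters are shown, Ifit1 was -6.57 and Isg15 -4.48, while Irf9, a subunit of the factor that binds the ISRE, was -1.57. Ifnb1, which encodes interferon-beta, was not well above background in colony cells and was at least 81.3-fold lower. Against control macrophages all 34 genes were higher after LPS (median 3.14), whereas in colony cells 30 were lower and 3 higher (median -1.34), with the same control arrays in both.

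Genes of the NF-kB pathway, most of them targets of the factor and inhibitors of it, were all lower: 17 of 17, with a median of -3.41. After quantile normalization 16 were lower and 1 higher, the subunit gene Rela (0.44 against -0.20), and without LPS replicate 2, 16 were lower and Rela was not called. Traf1, a signalling adaptor, read 6.07 and 6.23 after LPS and -2.08 and -2.09 in colony cells (-8.23). Birc3, an inhibitor of apoptosis (-5.13), the inhibitors Nfkbie (-4.86) and Nfkbia (-4.41) and the mitochondrial superoxide dismutase Sod2 (-4.82) followed. Nfkbia, with the NF-kB letters printed above, read 7.94 and 8.07 against 3.51 and 3.67 and lay between in controls at 5.74 and 5.58.

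Toll-like receptors with their adaptors and kinases were lower for 21 of 22 genes, with a median of -2.63, and 1 was higher. Tlr1, a partner of TLR2 in binding lipoproteins, read 5.41 and 5.46 after LPS and -1.81 and -1.86 in colony cells (-7.27, SE 0.06, adjusted p = 2.6e-07). The signalling brake Irak3 (-6.64), the LPS co-receptor Cd14 (-5.07) and Tlr8 (-5.03) followed. Tlr4, the LPS receptor itself, differed less (-0.58). Against control macrophages all 22 were lower in colony cells, and after LPS 12 were higher and 6 lower. Inflammasome and cell death genes were lower for 19 of 20, with a median of -2.23 and 1 gene not called. Besides Il1b, a member of this list too, the sensor Nlrc4 (-6.79), the nucleic acid sensor Zbp1 (-5.63) and the protease Casp1 (-5.25), which processes IL-1 beta, had the largest differences. Genes of reactive oxygen and iron handling were lower for 20 of 26 and higher for 4, or lower for 16 and higher for 7 after quantile normalization. In that list Lcn2, an iron-withholding protein, was -8.04, and Cybb, the catalytic subunit of the phagocyte NADPH oxidase, was -7.12.

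Genes of alternative activation did not move one way: 14 of 23 were higher in colony cells, 8 lower and 1 not called, with a median of 1.17, or 0.73 with normexp. Arg1, which encodes arginase 1, read 1.31 and 1.27 after LPS and 7.25 and 7.31 in colony cells, and was not well above background in controls. All colony values were higher, by 5.99 (SE 0.07, adjusted p = 2.6e-07), or 63.5-fold. Mrc1, the mannose receptor, read -0.37 and -0.12 after LPS and 3.12 and 3.22 in colony cells, a 10.7-fold higher level. Control macrophages read 5.27 and 5.35 for Mrc1, so the difference from controls was -2.14 in colony cells and -5.56 after LPS. Chil3, a chitinase-like lectin, was 3.75-fold higher (1.91). Atp6v0d2, a subunit of the vacuolar proton pump (5.53), the signalling inhibitor Socs2 (5.05) and the transcription factor Klf4 (4.86) were higher as well. Control macrophages read 2.97 and 2.76 for Atp6v0d2, so the difference from controls was -1.72 in colony cells and -7.25 after LPS. Socs2 and Klf4 were above controls in colony cells, with means of 1.36 against -3.47 and 4.68 against -0.18. Pdcd1lg2, an inhibitory ligand for T cells, was -4.78. Retnla, a secreted product of IL-4-activated macrophages, read -6.37 and -4.64 after LPS and -5.11 and -5.58 in colony cells, and was well above background on 1 LPS array. These values overlap (0.16, adjusted p = 0.79), and the sign turned with the LPS array kept: 1.03 (adjusted p = 0.009) without LPS replicate 2 and -0.70 (adjusted p = 0.032) without replicate 1.

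Cytokines and growth factors divided into 13 higher and 15 lower of 28 genes, with a median of -0.96, or -0.57 with normexp. Beside Il1b, Tnf and Il6, the lower group held Il1a (-6.90) and the receptor antagonist Il1rn (-5.76), and Csf3 and Csf2, growth factors for granulocytes and macrophages, were at least 71.1-fold and 19.5-fold lower. Growth factors lay on both sides. Igf1 (-3.0), Tgfb1 (-2.65), Vegfc (-2.59), Hgf (-2.13), Pdgfb (-1.44) and Fgf7 (-1.20) were lower in colony cells. Vegfa, the main vascular growth factor, read 0.63 and 0.61 after LPS and 4.08 and 4.06 in colony cells, a 10.9-fold difference (3.45). Control macrophages lay between the groups: the difference from controls was -2.62 after LPS and 0.82 in colony cells. Tgfb3 read -3.62 and -3.36 after LPS and 3.0 on both colony arrays (6.49), Vegfd, a lymphatic growth factor, was 6.43, and the EGF receptor ligand Hbegf was 5.13. Il33, an alarmin of barrier and stromal cells, was not well above background after LPS and at least 423.5-fold higher, and Tgfb2 was at least 106.96-fold higher. Csf1, which encodes M-CSF, was 2.85 higher.

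Of 21 chemokines 15 were lower, 4 higher and 2 not called, with a median of -2.33. After quantile normalization 14 were lower and 7 higher. Cxcl16 (-5.64) and the neutrophil attractants Cxcl2 (-5.20) and Cxcl1 (-4.53) followed Cxcl10 and Ccl5. Cxcl9, an interferon-gamma target, was at least 316-fold lower. The monocyte attractant Ccl2 stayed within a few fold: 8.4 and 8.58 after LPS, 7.30 and 7.42 in colony cells (-1.13). Colony cells and LPS macrophages were both far above controls for Ccl2, which read 0.5 and 0.3. Ccl8, a related attractant, read 2.16 and 2.14 against 2.12 and 2.22, with controls at -3.2 and -3.4, and was not called (0.02, adjusted p = 0.89), although it was after quantile normalization (0.40). Ccl6 was the largest rise among chemokines measured in both groups, from 2.45 and 2.39 to 7.99 and 7.90, or 46.0-fold. Cxcl12, which retains haematopoietic stem cells in their niche, read -8.18 and -4.54 on the LPS arrays and 2.85 and 2.82 on the colony arrays. It was well above background on only 1 LPS array.

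Complement genes were 8 higher and 10 lower of 18, with a median of -1.04, or -0.51 with normexp. Cfb, factor B of the alternative pathway, read 8.22 and 8.34 after LPS and -1.27 and -1.22 in colony cells (-9.53). Its control levels, -1.35 and -1.11, overlapped those of colony cells. C3, the central component, was also lower (-3.47). In contrast, C1s1 (8.55) and C1s2 (8.69), proteases of the classical pathway that are close copies of each other, and C2 (5.05) were higher in colony cells.

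Antigen presentation genes were mostly lower. Of 11 MHC class II genes 9 were lower, 1 higher and 1 not called (median -1.98), led by the invariant chain Cd74 (-4.21) and H2-Aa (-4.21). For Cd74 the levels were 4.70 on both LPS arrays and 0.63 and 0.35 in colony cells. Of 16 class I genes 15 were lower (median -2.42), led by Tapbp (-4.20), which loads peptide, and the immunoproteasome subunit Psmb8 (-3.69). Lysosomal genes were lower for 22 of 26 (median -1.11; 18 of 26 and -0.54 after quantile normalization), with the proteases Ctsc (-3.18), Ctsz (-2.66) and Ctsh (-2.47) in front, and Ctsk, a collagen-degrading protease of bone, among the 3 that were higher (2.09). Of 22 scavenger and clearance receptors 14 were lower and 6 higher (median -1.85). Marco, a receptor for bacteria, read 7.86 and 8.02 after LPS and -0.18 and -0.16 in colony cells (-8.11), while the collectin Colec12 (4.04) and the oxidized lipoprotein receptor Olr1 (3.63) were higher. The receptor Tyro3 depended on the probe used: 6.85 as reported, and -1.11 from the probe that was well above background on all 4 arrays.

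**Figure D3:**
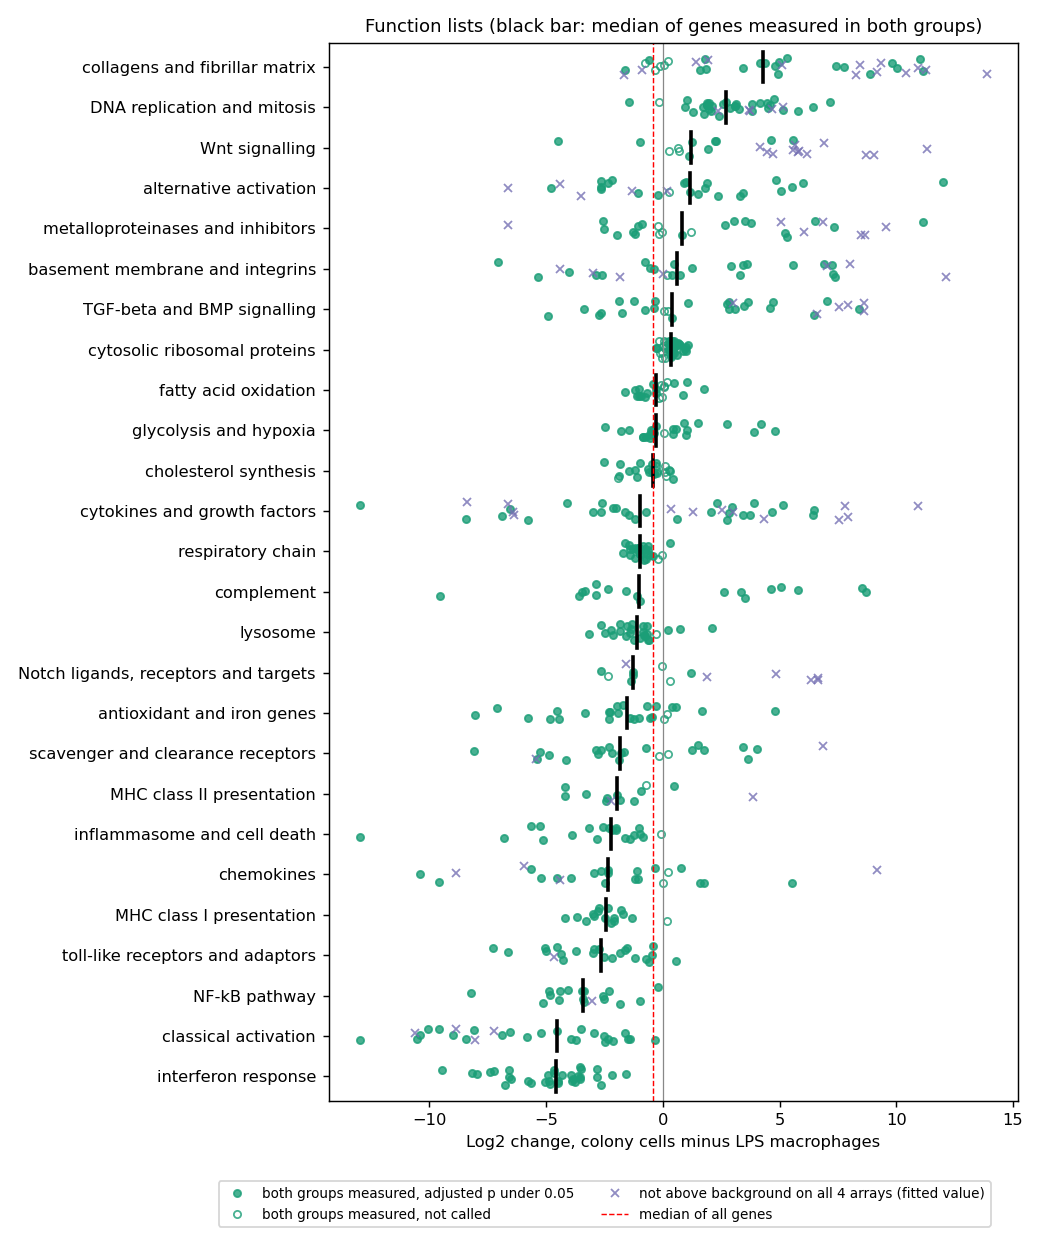
Log2 change between colony cells and LPS macrophages for the genes of each function list that were measured in both groups, as filled points where called and open points where not. Crosses are fitted values of genes below background on some of the 4 arrays and do not enter the black bars, which are list medians, and the dashed line is the median of all genes at -0.42. Interferon, NF-kB and classical activation genes lie wholly below 0, though Rela and Cxcl11 turn after quantile normalization, and replication, mitosis and collagen genes lie mostly above 0.

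Genes of DNA replication and mitosis were higher in colony cells for 31 of 33, with 1 lower, 1 not called and a median of 2.69. Rrm2, which supplies deoxynucleotides for replication, read -3.07 and -3.39 after LPS, -0.56 and -0.54 in controls, and 3.92 and 3.96 in colony cells (7.18, SE 0.12, adjusted p = 4.1e-07). Control values lay between those of the other groups, and the same order held for the cyclins Ccna2 (6.44) and Ccnb2 (5.81) and for the mitotic kinase Plk1 (5.16), whose levels were all lowest after LPS. The proliferation antigen Mki67 differed less (1.02), Tyms was -1.46, and Pcna was not called (-0.15, adjusted p = 0.12), although it was higher after quantile normalization (0.49). Against control macrophages 31 of the 33 were higher in colony cells (median 2.62), and after LPS 20 were lower and 7 higher (median -0.44), over the same control arrays.

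Cytosolic ribosomal proteins were higher for 24 of 38, lower for 2 and not called for 12, with a median of 0.36. The largest differences were Rpl3 (1.07), Rpsa (1.00), Rps2 (0.99) and Rpl5 (0.94). This count moved with the scaling, to 37 of 38 after quantile normalization (median 0.85).

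The medians of the metabolic lists lay between -0.98 and -0.30. Of 28 respiratory chain genes 25 were lower and 1 higher (median -0.98), against 20 and 4 after quantile normalization (median -0.38), led by the succinate dehydrogenase subunit Sdhb (-1.72), Cox5a (-1.60) and Cycs (-1.44). Glycolysis and hypoxia genes were 11 higher and 13 lower of 25, and the sign of the median turned with the scaling, from -0.30 to 0.28 after quantile normalization, where 14 were higher and 5 lower. Several hypoxia-response genes were higher in colony cells. Ndrg1 read 1.06 and 1.08 against 5.93 and 5.86 (4.82), the prolyl hydroxylase Egln3 was 4.21, the vasoactive peptide Adm 3.89 and the carbonic anhydrase Car9 2.77. Relative to controls, Ndrg1 was at -3.41 after LPS and at 1.42 in colony cells, while the other genes of this group were above controls in both. Pfkfb3, which speeds glycolysis (-2.46), the lactate exporter Slc16a3 (-1.79) and Hif1a (-1.44) were lower. Fatty acid oxidation genes were 4 higher and 11 lower of 21, and again the median changed sign with quantile normalization, from -0.30 to 0.18, where 12 were higher and 8 lower. Decr1 (1.75) and the mitochondrial fatty acid importer Cpt1a (-1.61) differed most. Of 24 cholesterol synthesis genes 15 were lower, 2 higher and 7 not called, and their median of -0.43 was -0.01 relative to the median of all genes. After quantile normalization 8 were lower, 7 higher and 9 not called (median -0.12). Srebf2, a transcription factor that regulates the pathway, was -2.51.

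Most matrix genes were higher in colony cells. Of 24 collagens and fibrillar matrix genes 17 were higher, 2 lower and 5 not called, with a median of 4.27. Without LPS replicate 2, 19 were higher and 2 lower. Col1a1, a chain of the main fibrillar collagen, read -4.54 and -4.13 after LPS and 5.68 and 5.73 in colony cells (10.04, SE 0.21, adjusted p = 7.3e-07). Its partner Col1a2 read -2.27 and -2.08 against -2.12 and -2.18 and was not called (0.03, adjusted p = 0.85). Dcn, the collagen-binding proteoglycan decorin, read -0.39 and -0.27 against 7.13 and 7.05 (7.42), and was not well above background in controls. Fbln5, an elastic fibre protein, was at least 1657-fold and the basement membrane collagen Col4a1 at least 1227-fold higher.

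Basement membrane and integrin genes were 13 higher and 8 lower of 22, with a median of 0.60, or 14 and 6 with a median of 1.08 after quantile normalization. The laminin chain Lamb1 was at least 1115-fold higher, and Lamb2 (7.37), Lama5 (7.29), the laminin receptor subunit Itga7 (7.24) and the proteoglycan Hspg2 (6.89) were higher. The leukocyte integrins Itgal (-7.08) and Itga4 (-5.37) were lower. Of 21 metalloproteinases and inhibitors 10 were higher, 7 lower and 4 not called, with a median of 0.84. Mmp2, a gelatinase of stromal cells, read -3.84 and -3.99 after LPS and 3.51 and 3.32 in colony cells (7.33), and the gelatinase Mmp9 was 8.22-fold higher (3.04). The collagenase Mmp13 read 5.19 and 5.51 after LPS and 5.19 and 5.21 in colony cells (-0.15), both far above the control levels of -0.56 and -0.75, and was not called, although it was higher after quantile normalization (0.53).

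TGF-beta and BMP genes were 13 higher and 10 lower of 25 (median 0.39), or 15 and 7 after quantile normalization (median 0.68). Ccn2, a matrix-associated target of the pathway, read -4.17 and -3.53 after LPS and 4.52 and 4.55 in colony cells (8.38), the receptor Bmpr1a was 7.02 and the BMP target Id1 was 4.72, while Tgfbi was -4.92 and Tgfb1 was -2.65. Wnt genes were 7 higher and 2 lower of 12 (median 1.19). Wnt4 (5.56) and Wnt5a (4.64) were higher, and Wnt6 (-4.50) was lower. Ccn4, a target of Wnt signalling, was at least 660-fold higher and the receptor Fzd2 at least 326-fold higher. Notch genes had 1 higher, 4 lower and 3 not called of 8 (median -1.27, or -0.78 after quantile normalization), with Jag1, a ligand, at -2.66, while the targets Hes1 and Hey2 were at least 26.7-fold and 21.96-fold higher.

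Mesothelial, smooth muscle and fibroblast markers were mostly higher, as were the matrix genes. Of 14 mesothelial markers, genes of the lining of body cavities, 13 passed the filter. Of these, 8 were not well above background on either LPS array, 10 were not in controls, and 0 were at background in colony cells. Most thus passed the filter through the colony arrays, so a higher sum in colony cells follows in part from the filter. The summed linear level of the 13 was 0.249 and 0.328 on the LPS arrays, 0.105 and 0.123 in controls, and 435 and 422 on the colony arrays. The surface glycoprotein Msln, which encodes mesothelin, read 7.62 and 7.56 in colony cells and -8.33 and -5.38 after LPS, and was well above background on 1 LPS array. Only Krt19 (11.04), Upk3b (8.12) and Muc16 (7.24) were measured in both groups, and all 3 were higher. Bounds for Wt1, Upk1b and Gpm6a ran from at least 996.5-fold to at least 2152-fold.

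Smooth muscle markers were 5 higher and 2 lower of 7, with a median of 5.40. Acta2, the smooth muscle actin of contractile cells and myofibroblasts, read -1.03 and -0.99 after LPS, -1.14 and -0.88 in controls and 7.26 and 7.22 in colony cells (8.25, SE 0.10, adjusted p = 2.6e-07). Actg2 (7.07), Tpm2 (6.26) and Smtn (5.40) were higher, Mcam (-3.79, but 0.15 and not called as the mean of its probes) was lower, and the defining late marker Myh11 was at background on both LPS arrays and was not called (0.57, adjusted p = 0.22), although it was without LPS replicate 2 (1.17). The summed levels were closer, at 305 and 391 against 429 and 410. Fibroblast and stromal markers were 8 higher, 1 lower and 1 not called of 10 (median 3.43), with summed levels of 21.7 and 19.3 after LPS and 331 and 327 in colony cells. The same sum was 120 and 98.9 in control macrophages and 220 and 217 with IL-4, so the LPS arrays had the lowest level of the 4 groups. Pdgfra was at least 8.65-fold and Thy1 at least 17.7-fold higher. The part of these markers in the matrix results was not tested.

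Endothelial markers, of the cell type on which the colonies grew, were 3 higher and 6 lower of 9 (median -0.88), with summed levels of 26.5 and 27.2 against 22.99 and 23.2. Cdh5, the defining adhesion molecule VE-cadherin, was not well above background in colony cells and at least 6.96-fold lower. Pecam1 read -1.19 and -1.11 after LPS and -2.06 and -2.01 in colony cells (-0.88), Eng was -3.36, Cldn5 -3.04 and Vwf -2.02. Esam (8.39), Egfl7 (3.03) and Flt1 (0.99, but -0.19 and not called as the mean of its probes) were higher. Ptprb (at least 9.57-fold, adjusted p = 3.9e-05), Mmrn2 (at least 9.92-fold, adjusted p = 0.0089), Tek (at least 3.97-fold, adjusted p = 0.00085) and Robo4 (at least 1.28-fold, adjusted p = 0.042) were not well above background after LPS and were higher, though Robo4 was not with normexp (-0.035) or without LPS replicate 1. Tie1, Erg, Emcn, Sox17 and Sox18 did not pass the filter in any group.

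**Figure D4:**
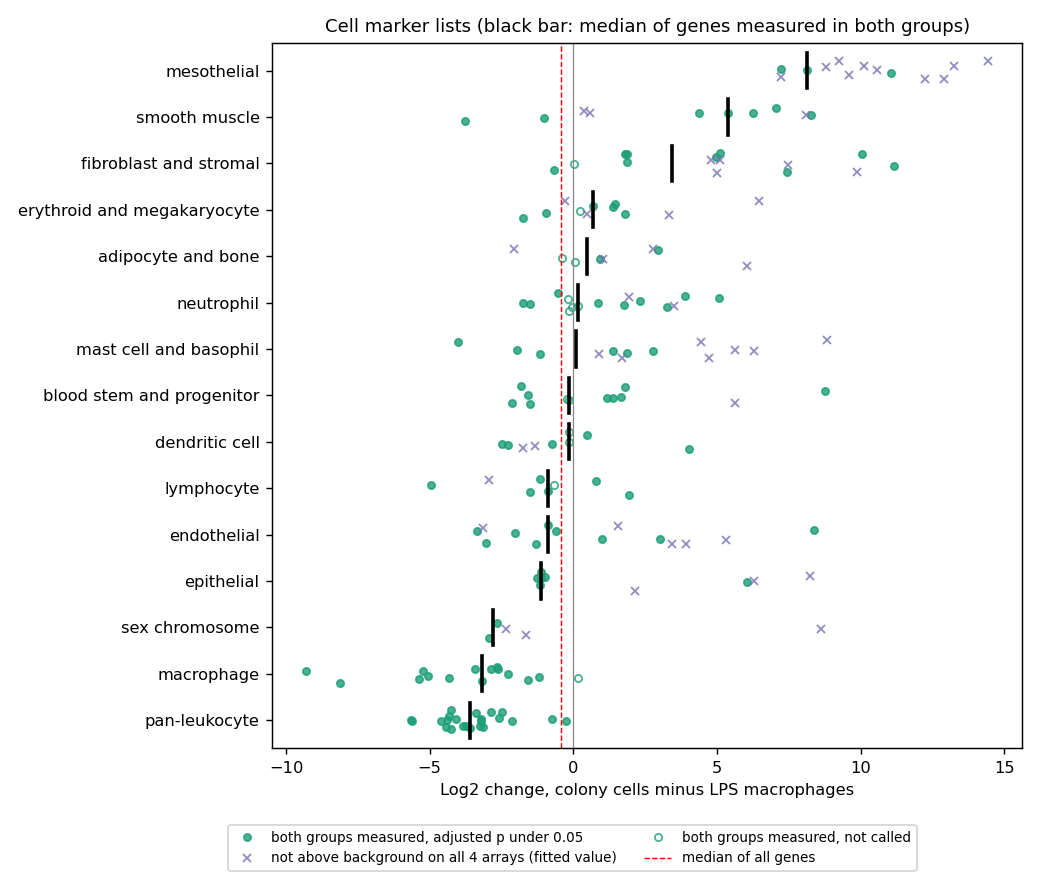
Log2 change between colony cells and LPS macrophages for the marker genes of each cell type that were measured in both groups, as filled points where called and open points where not. Crosses are fitted values of genes below background on some of the 4 arrays, black bars are list medians and the dashed line is the median of all genes at -0.42. Macrophage and pan-leukocyte markers lie on the lower side, apart from Itgam, and mesothelial, smooth muscle and fibroblast markers lie mostly on the higher side.

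Markers of other blood cells were mixed. Neutrophil genes were 6 higher, 3 lower and 4 not called of 13 (median 0.15), and the granule genes of immature myeloid cells Mpo (5.06) and Ctsg (3.87) were the largest rises. Mpo read -3.58 and -3.76 after LPS and 1.43 and 1.36 in colony cells. Mast cell and basophil genes were 3 higher and 3 lower of 6, and their median changed sign with normexp background correction, from 0.11 to -0.05. A further 7 genes were dim on 1 or both LPS arrays, and all 7 were fitted above 0. Of the 13 members that passed the filter, 8 were not well above background in controls and 0 in colony cells. Genes kept for their colony signal and dim after LPS fall above 0 by that selection, so the 7 are not separate evidence of a rise. The mast cell proteases Cpa3 and Cma1 were at least 216-fold and 44.2-fold higher, Gata2 (5.62), Mcpt8 (4.73) and Mcpt4 (0.89, but not with normexp) passed the test, and Fcer1a (4.44, adjusted p = 0.059) and Ms4a2 (1.71, adjusted p = 0.19) did not. Both passed without LPS replicate 1 (7.34 and 3.49), while Hdc, which makes histamine, was -4.0. Erythroid and megakaryocyte genes were 4 higher and 2 lower of 7, dendritic cell genes 2 higher and 3 lower of 7, lymphocyte genes 2 higher and 4 lower of 7, and stem and progenitor genes 5 higher and 4 lower of 11. Cd34, a surface protein of progenitors and also of vessels and stroma, read -4.67 and -4.01 after LPS and 4.38 and 4.44 in colony cells (8.75). Epithelial genes were 1 higher and 5 lower of 6, the 1 being the keratin Krt14 (6.05). Outside that count, Krt7 (8.25) and Cdh1 (6.30) were measured on 1 LPS array and Ocln on none, and all 3 were higher, Ocln by at least 1.36-fold, though not with normexp. On the LPS arrays Krt7 read -8.13 and -4.76 and Cdh1 -8.20 and -5.63, so both fits used a reading below background. As with the mast cell genes, the 3 were dim after LPS and are not separate evidence of a rise. Adipocyte and bone genes were 2 higher and 2 not called of 4, with Spp1, which encodes osteopontin, at 2.93.

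Sex-linked transcripts differed between the groups. Xist, transcribed from the inactive X chromosome of female cells, was not well above background on either LPS array and read 0.88 and 0.78 in colony cells, at least 113.5-fold higher. The Y-linked genes Ddx3y, at 1.43 and 1.48 after LPS and -1.46 and -1.53 in colony cells (-2.95), and Eif2s3y (-2.66) were lower but well above background in colony cells. Xist and Y-linked RNA were thus both measured on each colony array, whereas the LPS and control arrays had Y-linked RNA with Xist at background. The part of this difference in the other results was not tested.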

How the data were processed

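Levels are from 1-colour arrays of mouse bone marrow cultures, 8 arrays in 4 groups of 2. Per the file headers, the deposited spot intensity is the processed signal of Agilent Feature Extraction 10.7.3.1, background-subtracted, with 0 or 1 marks for spots well above background. The deposited value table holds log2 values, which differed from the log2 signal by a single offset in each array (r of at least 0.99996) whose meaning is unknown. The submitters' processing notes name Partek 6.4 and RMA without a role.

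Control spots and outlying spots were left out, spots of a probe averaged, and each array's 75th percentile subtracted. A probe was kept if well above background on both arrays of any group, which left 39411 probes. The probe with the highest mean level stood for a gene, giving 26504 genes. Of 55681 probes, 26762 were named by transcript accession, 3819 by symbol, 639 by synonym and 24461 kept the file's name. Among 6392 genes with several measured probes, 129 had probes differing by 2-fold or more in opposite directions.

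All 8 arrays entered 1 limma 3.58.1 fit (R 4.3.3, lmFit and eBayes) with a term per group and no covariate, and p-values were adjusted by Benjamini-Hochberg over all genes. On simulated data with the same spread, 52% of 2-fold and 80% of 4-fold changes were recovered, with 7 calls among unchanged genes of 26467. Only a small share of genes was changed in the simulation, whereas most genes tested were called here. The adjusted threshold was therefore stricter there, and these rates do not carry over to the counts reported. The number of arrays limits the precision. Alternatives were another background correction, other scalings, the deposited table, other probe filters and rules, fits on 4 arrays, with an intensity trend or a replicate block, and each array left out.

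Named were the 10 largest changes each way, the 8 largest bounds each way, up to 4 genes per list and a panel of macrophage genes. Further list members, such as Col1a2, Ccl2, Ccl8, Mmp13, Tlr4, Rela and Mki67, were named after their values were seen. The 26 function lists and 15 marker lists were chosen with earlier results of these data known. Promoters came from RefSeq tables of GRCm38.p6, matched by symbol (13652 of the genes tested).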

Additional observations from a re-analysis of the deposited data

How the results depend on the processing

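The counts of called genes kept within 1.5 times of the reported ones under every alternative run: the total ranged from 16942 (deposited value table, 23287 genes tested) to 20592 (variance with an intensity trend), and leaving out 1 array at a time gave 17919 to 19755, with 6217 to 7109 higher and 11572 to 13060 lower. Of calls, 35.0% were higher as reported, with a range of 31.98% to 44.3% (quantile normalization). Of single genes named by the rule, the direction turned for Tyro3 (-1.11, probes well above background on all 4 arrays), Zbtb46 (0.92, mean of all probes, adjusted p = 0.051) and Retnla (-0.70 without LPS replicate 1, 1.03 without replicate 2). Of genes named after their values were seen, it turned after quantile normalization for Cxcl11 (0.40), Rela (0.44), Pcna (0.49) and Mmp13 (0.53), and as the mean of all probes for Cxcl11 (0.18), Flt1 (-0.19), Itgam (-1.54) and Mcam (0.15), and with normexp for Robo4 (-0.035). The cause was not tested. Mcpt8 (4-array fit), Clec9a and Kdm5d (quantile normalization), Ocln and Mcpt4 (normexp) and Flt1 (without colony cells replicate 2) lost their calls. Cxcl11 and Rela lost theirs with median centring, the deposited table, no filter, the 4-array fit and without LPS replicate 2 or either colony array, and Rela also with the replicate block and without LPS replicate 1. Robo4 lost its call with no filter, the 4-array fit, an intensity trend and the replicate block, and without LPS replicate 1 or either colony array. Ccl8, Itgam and Myh11 gained calls after quantile normalization, and Myh11 also without LPS replicate 2. Fcer1a gained one with normexp, median centring, the deposited table, an intensity trend or either LPS array left out (7.34 without replicate 1, 1.55 without replicate 2), and Ms4a2 without LPS replicate 1 (3.49). Over the genes in these tests, 3657 other values kept their call or stayed uncalled. A turn of sign with no call in either fit is counted among these values and is not listed above.

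Of list medians relative to all genes, 110 values under other settings moved by more than the spread between replicates, and 464 did not. For example, the neutrophil median of 0.15 was 0.31 without LPS replicate 2, and the erythroid median of 0.68 was 0.37 with normexp. The dendritic cell and progenitor medians of -0.16 and -0.14 were -0.06 and -0.05 with median centring. With normexp the fibroblast median was 2.57, the smooth muscle median 4.87 and the chemokine median -1.60. The scavenger receptor median was -1.23 after quantile normalization.

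Same-numbered samples did not deviate together (r of 0.02 for LPS and colony samples, -0.16 to 0.05 over all pairs of groups), so the numbers are not taken as pairs. With the replicate number as a block, 19846 genes were called, 6923 higher and 12923 lower.

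Limits: with 2 arrays a group, adjusted p-values rest on limma's pooled spread, and genes near background have only bounds. Levels cannot be compared between probes.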
